A study of Homo sapiens with 16 samples.

Results

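The zinc finger genes of chromosome 19 were followed through 4 ATAC-seq peak lists of MDA-MB-231 cells. They were taken as every protein-coding gene of chromosome 19 in the GRCh38.p14 gene table whose symbol starts with ZNF and a number, with no measured value used in the choice. The rule gave 250 genes of the 1451 protein-coding genes on the chromosome and of 20037 in the genome, and the other 1201 genes of chromosome 19 served as the comparison. Of the 250 genes, 4 have hyphenated symbols (ZNF559-ZNF177, ZNF816-ZNF321P, ZNF765-ZNF761 and ZNF470-DT), 34 overlap another gene of the set, and 47 have an end within 1 kb of the end of another gene. Members that overlap or share an end can share a peak, so they are not independent of each other.

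MDA-MB-231 is an established human breast adenocarcinoma cell line with mesenchymal traits, labelled wild type throughout. Cells grew on polyacrylamide gels coated with type I collagen, either soft (Young's modulus 1 kPa) or stiff (308 kPa). The 4 groups were ancestral cells on soft gel, ancestral cells on stiff gel, selected cells on soft gel and selected cells on stiff gel, with 4 samples each. Selected cells had been replated on fresh gel, 20000 cells at a time, about every 7 days for 75 days. The labels used here do not settle whether the selected cells on stiff gel had been selected on stiff or on soft gel. ATAC-seq cuts accessible DNA with a transposase, and a peak is a stretch with more cut fragments than the background. The files hold 1 peak list for each group and no value for a single sample, so no difference below has a replicate check and none was tested. Intervals in brackets are exact Clopper-Pearson 95% intervals and cover counting error only.

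Zinc finger proteins of this family bind DNA through tandem fingers of the C2H2 type. Many of those encoded on chromosome 19 also carry a KRAB domain, which recruits the corepressor TRIM28 and through it the histone methyltransferase SETDB1 and HP1 proteins, and they are best known for silencing transposable elements. The genes lie in clusters that arose by repeated duplication. Their coding ends are known to carry the silencing mark H3K9me3, while many of their promoters are CpG-rich and active in most cell types.

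The lists held 109578 peaks (ancestral on soft), 116043 (ancestral on stiff), 129755 (selected on soft) and 122591 (selected on stiff), of which 5451, 5956, 7382 and 7267 lay on chromosome 19. The background pileup per list, that is the number of overlapping fragments expected without a peak, was 16.3, 20.2, 13.5 and 12.6 in the same order, and the median fold enrichment of a peak over it was 6.47, 6.27, 3.59 and 4.19. Folds were thus lower in both selected lists for peaks in general, and fold values are compared below within a list or by rank. Each list skips 1.00% of its peak numbers. A gene end that touches such a stretch and has no listed peak was counted as undetermined. As a check of the label, the mesenchymal genes VIM, CAV1, EGFR and ZEB1 had an end peak in every list and MSN in the ancestral lists alone (folds 11.8 and 10.7), while CD44 was undetermined in the ancestral lists and AXL in all. An end peak was found for the epithelial and luminal genes CDH1 and ESR1 in no list, whereas the luminal genes GATA3, FOXA1 and PGR had one in every list. Of the blood markers, PTPRC had none and CD3E had one in every list.

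Most zinc finger genes of chromosome 19 carried a peak at a gene end, and nearly all of these were at the start. An end peak here has its summit within 1 kb of either annotated end of the gene. In ancestral cells on soft gel 200 of 249 determined members had one (80.3%, interval 74.8 to 85.1%), and on stiff gel 198 of 250 (79.2%, 73.6 to 84.1%). In selected cells the number was 205 of 250 on soft gel (82.0%, 76.7 to 86.6%) and 206 of 249 on stiff gel (82.7%, 77.5 to 87.2%). The 4 intervals overlapped, but the same genes were scored in each list, so this overlap does not settle whether the shares differ. Paired by gene, 9 members were called in the selected list alone and 4 in the ancestral list alone on soft gel. On stiff gel these counts were 10 and 1. Among the other genes of chromosome 19 the share was 71.1%, 72.8%, 79.3% and 79.7%. Over all protein-coding genes it was 68.4%, 69.8%, 72.2% and 72.5%, and among the 267 ZNF genes of other chromosomes 85.2%, 87.0%, 86.4% and 87.9%. In the other chromosome 19 genes it went up by more from the ancestral to the selected lists than it did among the members.

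The start and the far end of the genes differed in opposite directions from their neighbours. Strand was known for 219 members. At the start end 78.8%, 78.9%, 82.6% and 83.4% of the members had a peak, against 65.8%, 66.7%, 73.0% and 72.7% of the other genes of chromosome 19. ZNF genes of other chromosomes were higher still there, at 84.3%, 86.4%, 84.3% and 87.5%. At the far end, where the zinc fingers are encoded, only 7.80% (4.61 to 12.2%), 8.72% (5.33 to 13.3%), 6.98% (3.96 to 11.2%) and 7.37% (4.27 to 11.7%) of the members had one. The other chromosome 19 genes had a far-end peak in 35.6%, 40.2%, 45.1% and 45.5% of cases, with intervals that did not overlap those of the members in any list. The other genes gained far-end peaks from the ancestral to the selected lists, and the members did not. The 267 ZNF genes of other chromosomes stood between both sets at the far end, at 13.4%, 13.1%, 15.0% and 15.0%. So did all protein-coding genes, at 17.5%, 18.9%, 20.7% and 20.2%.

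**Figure D1:**
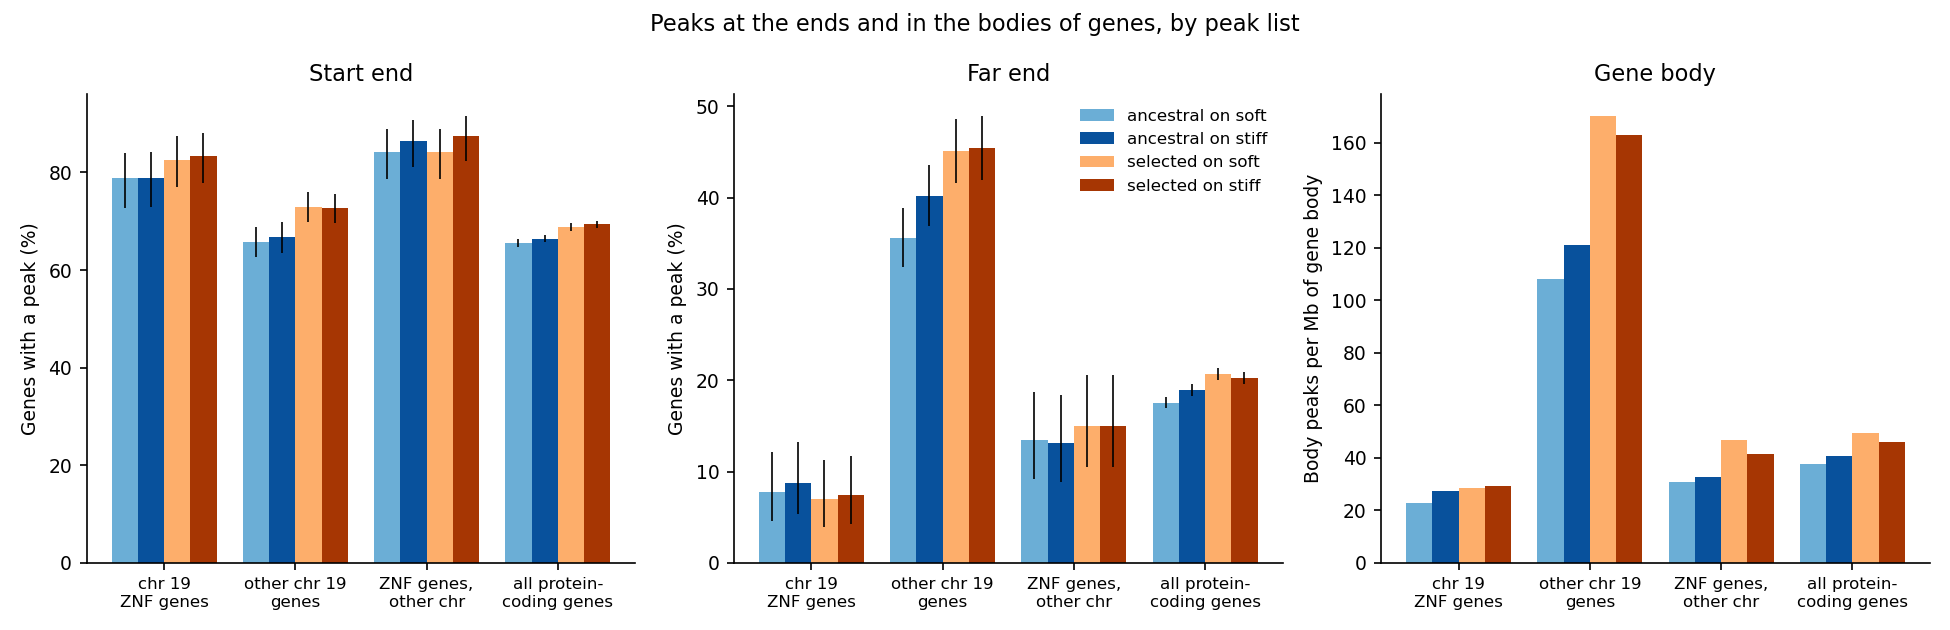
Share of genes with a peak within 1 kb of the start end and of the far end (%, bars with exact 95% binomial intervals for counting error) and body peaks per Mb of gene body (no error bar), for 4 gene sets and the 4 peak lists. The zinc finger genes of chromosome 19 have a start-end share of 78.8 to 83.4% but the lowest far-end shares (6.98 to 8.72%) and body densities (22.8 to 29.1 per Mb) of the sets.

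Start-end summits sat close to the annotated start. Their median position was 33.5 bp upstream in ancestral cells on soft gel, 14 bp upstream on stiff gel, and 28 and 26 bp upstream in selected cells on soft and stiff gel. In 500 bp bins the members had 53.9, 44.7, 50.2 and 50.7 summits per 100 genes just upstream of the start and 21.9, 32.0, 28.3 and 29.2 just downstream. Between 1 and 20 kb into the gene the median bin held 1.27, 1.34, 1.51 and 1.38 summits per 100 members. The same bins held 5.92, 6.63, 9.03 and 8.61 summits per 100 of the other chromosome 19 genes. A sharp start peak followed by few summits was thus seen in each of the 4 lists, and the level inside the gene changed little between them for the members.

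**Figure D2:**
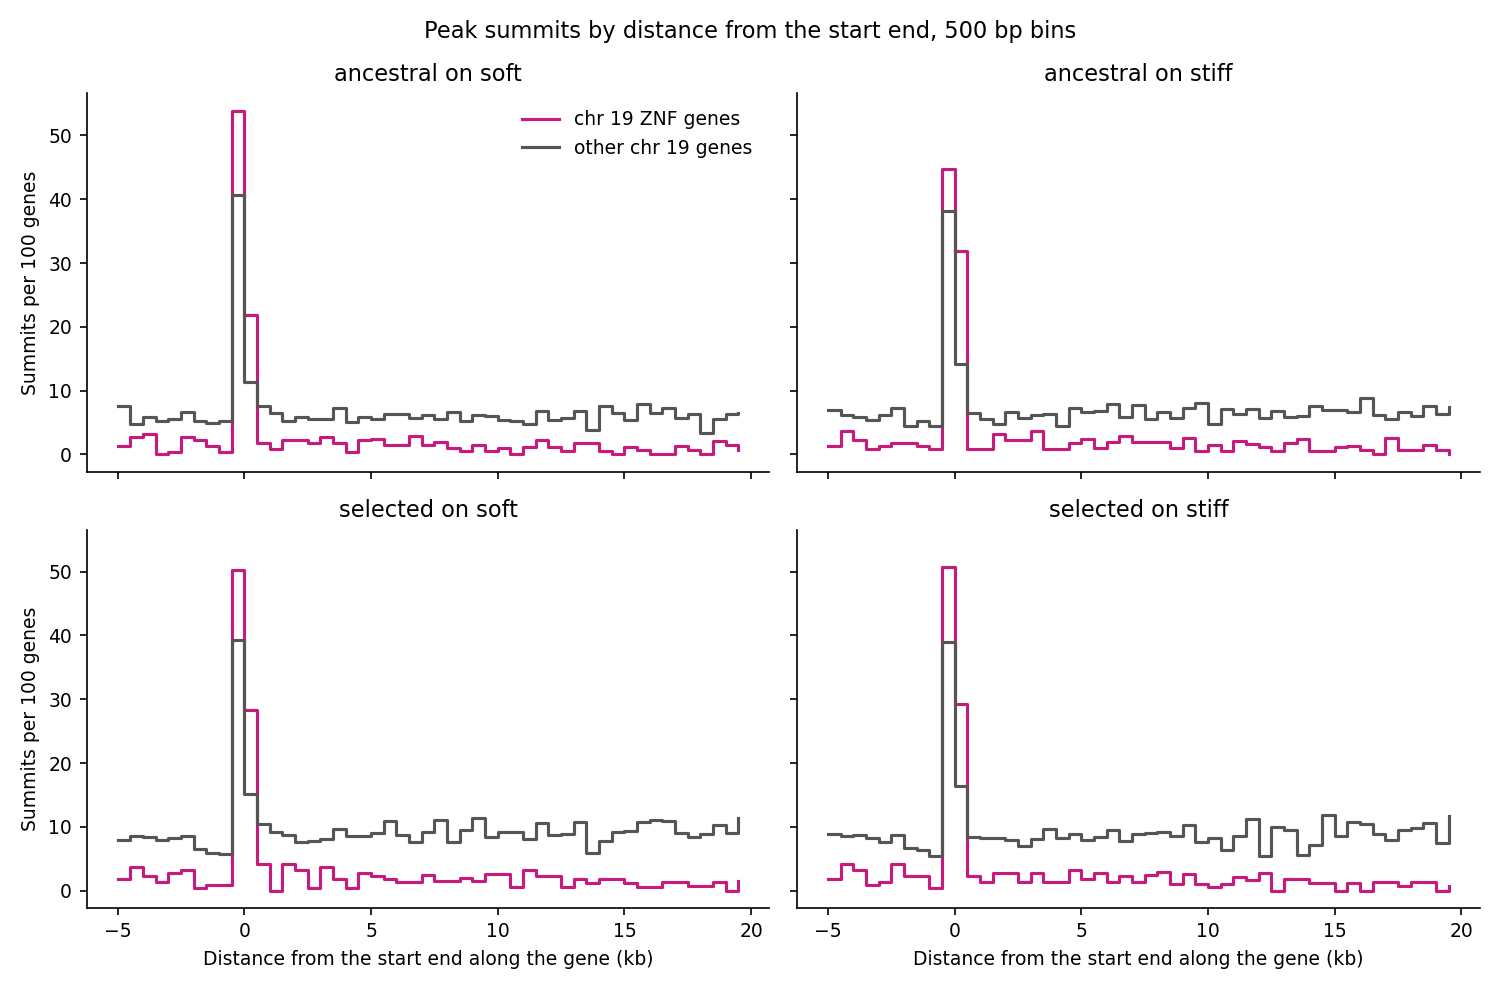
Peak summits per 100 genes (y axis) in 500 bp bins by distance from the start end along the gene (x axis, kb), for the zinc finger genes of chromosome 19 with known strand and the other genes of the chromosome, 1 panel per peak list. Members peak higher at the start (53.9 against 40.7 per 100 genes in the first upstream bin of ancestral cells on soft gel) and stay lower inside the gene in each panel.

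The end peaks of the members were strong for their list. The median fold of a member's end peak was 58.9 (soft) and 70.3 (stiff) in ancestral cells, and in selected cells 32.9 (soft) and 41.8 (stiff), against 41.6, 47.7, 18.8 and 26.4 for other chromosome 19 genes. Ranked among all protein-coding genes with an end peak in the same list, the median member stood at percentile 65.3, 66.7, 68.8 and 65.6. Of 200 members with an end peak in ancestral cells on soft gel, 135 were above the middle of that ranking. In the other lists 134 of 198, 152 of 205 and 141 of 206 were. Above percentile 90 were 8.59 to 10.7% of the members with an end peak (17 to 22 per list), close to the share in the ranking as a whole, and below percentile 10 were 1.52 to 4.85% (3 to 10 per list). Among other chromosome 19 genes 18.2 to 19.6% were above and 14.5 to 17.3% below. ZNF genes of other chromosomes were like the members, with 8.73 to 11.6% above and 2.58 to 4.00% below. End peaks of members were also narrower, with median widths of 1498, 1578, 1454 and 1423 bp against 1742, 1895, 1972 and 1875 bp.

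The 5 members with the highest end peaks by summed rank were ZNF497, ZNF837, ZNF146, ZNF564 and ZNF787. ZNF497, next to A1BG, reached folds of 167.1 and 185.5 in ancestral cells on soft and stiff gel and 105.6 and 156.1 in selected cells. ZNF837 reached 182.3, 199.1, 101.0 and 139.0 in the same order. ZNF146, which codes for a protein made almost only of zinc fingers, had 152.9, 174.8, 119.0 and 128.9. All 3 genes were lowest in selected cells on soft gel, the list with the lowest median fold overall. ZNF584 had higher folds still at its start in 3 lists (223.6, 213.2 and 149.3), but its start in selected cells on stiff gel was undetermined. It was singled out after its values were seen.

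Ranks moved little between ancestral and selected cells. For the 193 members with an end peak in all 4 lists, the percentile in selected minus ancestral cells had a median of 3.98 on soft gel (quartiles 0.87 and 7.59) and of 1.29 on stiff gel (-0.83 and 3.91). The same medians over all 11950 genes with a peak in every list were 2.27 and 1.54, so the members moved with the rest on stiff gel and somewhat further on soft gel. On both gels 120 of 193 members ranked higher in selected cells and 23 ranked lower (62.2% and 11.9%). Over all genes the shares were 53.1% and 20.4%, among other chromosome 19 genes 64.9% and 12%, and among ZNF genes of other chromosomes 49.5% and 22.5%. Shifts that held on both gels were ranked by the smaller shift of either gel, after the values were seen. The largest downward one was at ZNF565 (percentile 84.1 and 88.5 in ancestral cells, 66.4 and 71.5 in selected cells). The largest upward one was at ZNF586 (45.1 and 40.4 against 57.9 and 51.7). ZNF580 moved up by 13.3 percentile points on soft and 11.2 on stiff gel, and ZNF772 by 16.1 and 11.1.

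Most members had the same end call in all groups. End peaks were present in all 4 lists at 193 members and in no list at 39, while 18 members differed between lists or had an undetermined one. At 8 of the 17 members that differed and were fully determined, a peak reached into the 1 kb window of an end in every list. There the summit lay outside the window in the lists without a call. ZNF175 shows this: its peak of about 2.9 kb had a fold of 34.4, 20.6 and 21.1 in 3 lists, and in ancestral cells on stiff gel the summit lay 1847 bp from the end. At 5 of the 8 genes, ZNF175, ZNF792, ZNF850, ZNF575 and ZNF331, each called end peak overlapped a peak of every list without a call. At ZNF358, ZNF444 and ZNF324B some did not: the end peak of ZNF358 in ancestral cells on soft gel overlapped a peak in selected cells on soft gel but none in either list on stiff gel.

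At 9 members at least 1 list had no part of a peak near the ends. ZNF529, ZNF382, ZNF541, ZNF667, ZNF154 and ZNF135 had an end peak in both selected lists and in neither ancestral list. ZNF582 was the reverse, called in both ancestral but neither of the selected lists. ZNF773 lacked it in ancestral cells on stiff gel only, and ZNF556 had it in selected cells on stiff gel only. No member had an end peak in both lists of 1 stiffness and in neither of the other.

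The selected-only peaks were weak. The head-to-head genes ZNF382 and ZNF529, whose starts overlap, shared a single peak with a fold of 2.97 on soft gel (pileup 42) and 2.64 on stiff gel (pileup 35). ZNF529 kept a peak at another listed start in all 4 lists, so of the pair only ZNF382 lacked any start peak in ancestral cells, where the nearest summit was 27780 and 27788 bp away. ZNF541, a gene expressed mainly in testis, had 2.69 and 2.35 in selected cells on soft and stiff gel. ZNF667 had 3.80 and 2.94. ZNF154, whose promoter is known as often methylated in tumours, had 3.11 and 2.35, and ZNF135 had 2.56 and 3.01. Of these 12 calls, 11 were below the median fold of their list and 1 had a −log10 q of at least 10. The peak shared by ZNF382 and ZNF529 counts for each of them here. All 12 folds were above the lowest fold listed for ancestral cells on the same gel, 1.85 on soft and 1.79 on stiff gel. Folds are not on 1 scale between lists, so this does not tell whether such peaks would have been listed in ancestral cells.

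ZNF582, another gene known for promoter methylation in tumours, had the ancestral-only peak. This peak had a fold of 3.58 (pileup 61) in ancestral cells on soft gel and 5.61 (pileup 118) on stiff gel, at chr19:56393219-56393720 in the latter list and across the annotated start. Both folds were below the median of their list, 6.47 and 6.27. In selected cells the nearest summit to either end was 5117 bp away on soft gel and 1539 bp away on stiff gel.

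**Figure D3:**
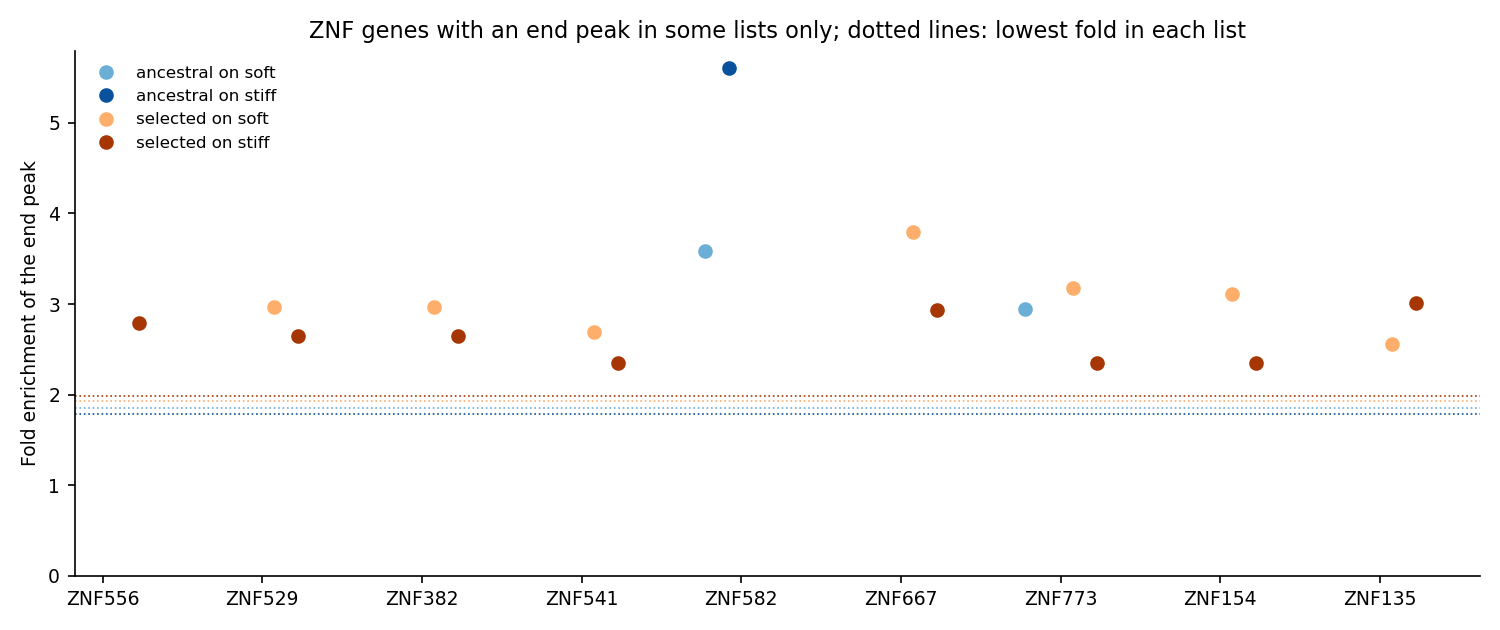
Fold enrichment of the end peak (y axis) in each list where one was called, for the 9 zinc finger genes with no part of a peak within 1 kb of an end in at least 1 list; dotted lines give the lowest fold in each list. The selected-only calls lie between 2.35 and 3.80, and ZNF582 is called at 3.58 and 5.61 in the ancestral lists only.

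The 250 bases upstream of the start are shown for the genes with a peak in 1 population only whose window lies outside every protein-coding gene, so that the reader can set their CpG content beside that of the most open members. This restriction was made after the values were seen. Sequences are from RefSeq (GRCh38.p14), 5′ to 3′ on the gene's strand, with CpG dinucleotides in capitals.
ZNF582: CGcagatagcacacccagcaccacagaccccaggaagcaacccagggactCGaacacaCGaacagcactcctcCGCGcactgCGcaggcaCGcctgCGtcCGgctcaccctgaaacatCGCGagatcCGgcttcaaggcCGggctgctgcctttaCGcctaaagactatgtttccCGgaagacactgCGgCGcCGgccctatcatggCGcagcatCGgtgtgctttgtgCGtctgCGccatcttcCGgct
ZNF154: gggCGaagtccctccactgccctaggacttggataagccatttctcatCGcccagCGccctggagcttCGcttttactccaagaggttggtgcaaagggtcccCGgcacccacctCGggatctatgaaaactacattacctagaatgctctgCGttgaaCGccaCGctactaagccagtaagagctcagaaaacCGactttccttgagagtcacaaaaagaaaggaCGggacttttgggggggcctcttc
ZNF135: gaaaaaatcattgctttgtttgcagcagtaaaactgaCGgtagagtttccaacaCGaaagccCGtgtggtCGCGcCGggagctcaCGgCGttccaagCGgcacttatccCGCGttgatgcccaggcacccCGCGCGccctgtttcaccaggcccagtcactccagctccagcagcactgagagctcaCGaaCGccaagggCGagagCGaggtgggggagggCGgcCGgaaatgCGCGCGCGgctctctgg
The ZNF582 window (chr19:56393535-56393784, minus strand) holds 23 CpG, that of ZNF154 (chr19:57709205-57709454, minus strand) 11, and that of ZNF135 (chr19:58058989-58059238, plus strand) 24. For comparison, the windows of the most open members were as follows.
ZNF497: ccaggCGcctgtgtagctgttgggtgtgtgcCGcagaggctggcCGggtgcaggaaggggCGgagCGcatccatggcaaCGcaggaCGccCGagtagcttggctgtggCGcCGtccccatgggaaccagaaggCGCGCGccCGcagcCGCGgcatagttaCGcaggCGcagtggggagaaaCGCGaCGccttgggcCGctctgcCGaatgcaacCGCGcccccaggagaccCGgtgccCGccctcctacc
ZNF837: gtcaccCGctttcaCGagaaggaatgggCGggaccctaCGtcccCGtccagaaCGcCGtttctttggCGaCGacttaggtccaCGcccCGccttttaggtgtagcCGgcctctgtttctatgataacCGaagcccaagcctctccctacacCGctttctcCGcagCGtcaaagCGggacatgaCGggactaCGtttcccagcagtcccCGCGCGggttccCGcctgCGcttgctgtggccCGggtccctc
ZNF497 (chr19:58362752-58363001, minus strand) holds 27 CpG and ZNF837 (chr19:58381031-58381280, minus strand) 25. The counts of ZNF582 and ZNF135 were thus close to those of the most open members, and that of ZNF154 was lower.

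A start within 1 kb of the annotated end of the gene was listed for 190 members. Their windows held a median of 16 CpG, against 17 for 912 other genes of chromosome 19, 19 for 197 ZNF genes of other chromosomes and 17 for all 14568 protein-coding genes treated alike. The letters CCGGAAG, the core that ETS factors bind, were found on either strand in 57 of the 190 member windows. They were in 27.9% of the windows of ZNF genes elsewhere, 11.6% of those of other chromosome 19 genes and 12.2% of all genes. AAGATGGC, a core of the YY1 motif, was in 4.74% of the members and 1.46% of all genes. CCAAT was in 50.5% against 34.8%, GGGCGG in 64.2% against 56.5% and TATAAA in 2.63% against 9.38%. For ZNF genes elsewhere the last 3 shares were, in the same order, 43.1%, 58.9% and 4.06%. For other chromosome 19 genes they were 36.6%, 63.5% and 7.68%, the middle value being close to that of the members. The YY1 core was in 1.02% of the windows of ZNF genes elsewhere and 1.75% of those of other chromosome 19 genes. Short motifs of this kind can overlap one another, and a match is no evidence of binding. Members with no end peak in any list held the ETS letters in 5 of 14 windows and those with one in all lists in 49 of 163, that is 35.7% and 30.1%.

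The 39 members without an end peak fell into different kinds. The 5 longest were ZNF536, ZNF420, ZNF676, ZNF730 and ZNF208. A start was listed for 29 of the 39, and at 13 of them, among these ZNF420, another listed start inside the gene had a peak in all 4 lists. A further 14 had no peak at any listed start in any list, and ZNF536 and ZNF814 had one in selected cells on soft gel only. ZNF536, which acts in neuronal differentiation and is by far the longest member at 487995 bp, held 3, 3, 5 and 3 body peaks.

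The largest block of closed genes was a run of 10 neighbours, ZNF208, ZNF257, ZNF676, ZNF729, ZNF98, ZNF492, ZNF99, ZNF723, ZNF728 and ZNF730 (chr19:21939815-23147221). Not 1 of them had an end peak in any list. Across its 1.21 Mb only 2, 2, 9 and 8 summits were listed, or 1.66, 1.66, 7.45 and 6.63 per Mb, against 93.1, 101.7, 126.1 and 124.1 per Mb for chromosome 19 as a whole. The selected lists held more of these few peaks than the ancestral ones. The only member of the run with a body peak was ZNF730, with 1 in each selected list and none in ancestral cells.

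**Figure D4:**
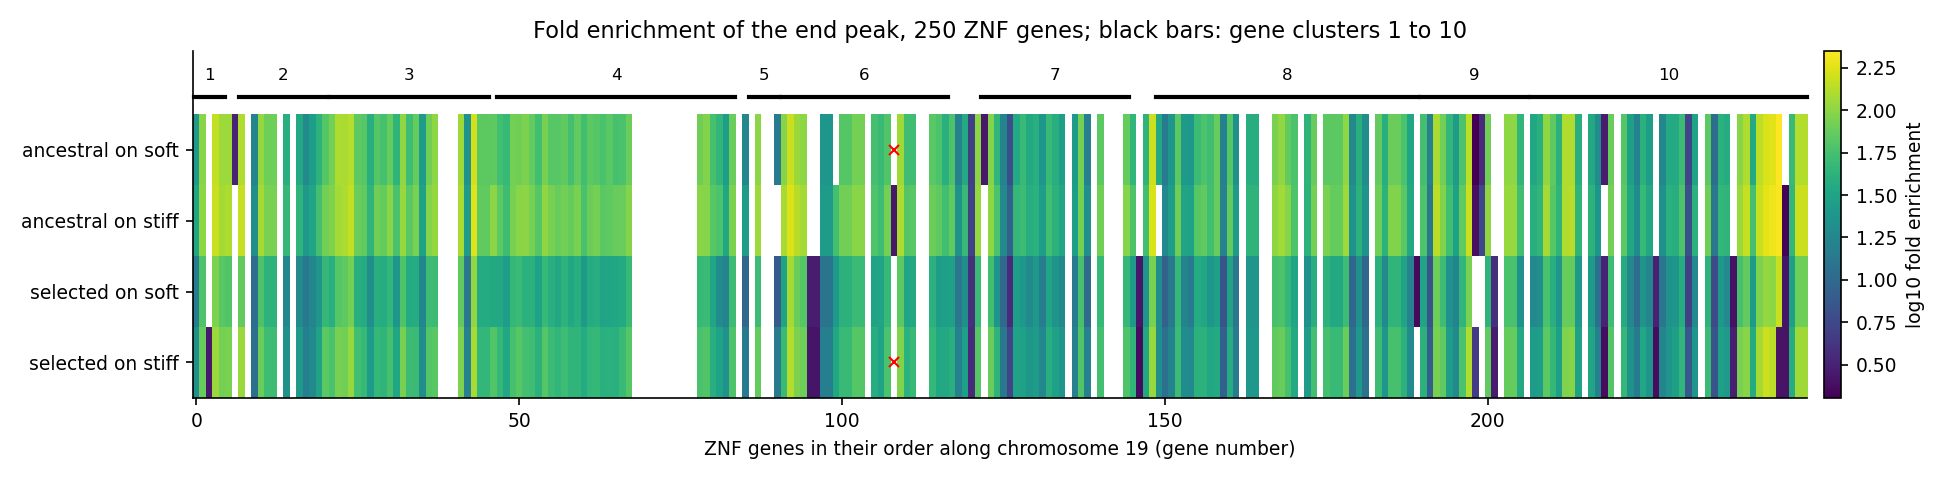
Fold enrichment of the end peak on a log10 colour scale for the 250 zinc finger genes in their order along chromosome 19 (x axis, gene number), 1 row per peak list; white marks no end peak, a red cross an undetermined end, and black bars the 10 gene clusters. Columns are filled or white in all 4 rows at most genes (193 in all lists, 39 in none), and the widest white block, in cluster 4, is the run of 10 closed genes.

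Inside the genes, peaks were sparse. A body peak has its summit in the gene but more than 1 kb from both ends. The members held 151, 182, 190 and 193 body peaks over 6.64 Mb of gene body, or 22.8, 27.4, 28.6 and 29.1 per Mb. The other genes of chromosome 19 held 108.2, 121.2, 170.2 and 162.9 per Mb. The density of the members was thus 21.0% (17.7 to 24.8%), 22.6% (19.4 to 26.3%), 16.8% (14.5 to 19.5%) and 17.8% (15.4 to 20.6%) of that of their neighbours. The gap to other sets was smaller: ZNF genes of other chromosomes held 30.8, 32.5, 46.9 and 41.5 per Mb and all protein-coding genes 37.5, 40.8, 49.4 and 46.2 per Mb, of which the members' density was 60.7%, 67.2%, 57.9% and 63.0%. Among genes of 10 to 30 kb the densities were 23.0, 27.0, 30.2 and 31.0 per Mb against 128.8, 141.9, 184.0 and 181.9 per Mb for the other genes, so the members were lower within this length class as well. For genes of 30 kb and over their density was 15.6 to 23.4%, and for genes under 10 kb, where the members held 77.7 to 84.7 per Mb, 48.8 to 59.9% of that of the other genes. Restricting all lists to an equal number of their strongest peaks raised the relative density of the members to between 25.8 and 36.3%. No body peak was listed in any group at 125 of the 250 members.

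The body peaks were of mixed kinds. Between 39 and 44 per list lay within 1 kb of another listed start of a member and had high folds, with medians of 73.8, 86.0, 38.4 and 53.1. Those near neither a listed start nor a gene end, 110, 141, 142 and 149 per list, had median folds of 4.77, 4.38, 3.18 and 3.67. By the median, body peaks at further listed starts thus had much higher folds than those near neither. Strong peaks were not counted by position.

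The question named in the series text is how soft-selected cells on soft gel differ from ancestral cells there. At gene ends the lists differed at few members. On soft gel 9 of 249 determined members were called at an end in the selected list alone and 4 in the ancestral list alone (3.61% and 1.61%), where the background over all protein-coding genes was 7.11% and 2.80%. On stiff gel it was 10 and 1 of 249 (4.02% and 0.40%), against a background of 5.63% and 2.50%. The share of members was below the background in both directions on both gels, a difference that was not tested. ZNF genes of other chromosomes were below it as well, at 3.42% and 1.90% on soft gel and 2.29% and 0.38% on stiff gel. Where only peaks with a −log10 q of at least 10 were used, the selected-only counts fell to 2 and 3.

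Body peaks were gained more often than lost in the selected lists. On soft gel 77 of the members' body peaks in selected cells overlapped no ancestral peak and 24 in ancestral cells overlapped no selected peak, a log2 ratio of 1.68 (interval 1.00 to 2.41). On stiff gel the numbers were 55 and 28, a log2 ratio of 0.97 (0.29 to 1.69). Both ratios turned negative when only peaks with a −log10 q of at least 10 were kept. They were then -0.27 on soft gel (24 and 29 peaks) and -0.63 on stiff gel (22 and 34 peaks). That threshold was applied to both lists, so a peak also counted as unshared when its partner fell below it. It kept 78.7% and 81.4% of peaks in the ancestral lists on soft and stiff gel, and 57.5% and 63.2% in the selected lists. The selected-only peaks of the main count had median folds of 2.63 and 2.64. Of them 14 of 77 and 16 of 55 reached the threshold, against 20 of 24 and 21 of 28 of the ancestral-only ones. With an equal number of the strongest peaks per list both ratios were positive, 0.24 on soft gel (13 and 11 peaks) and 1.22 on stiff gel (14 and 6 peaks). The members' shares were near those of protein-coding genes in general. On soft gel 40.5% of the determined body peaks of selected cells and 16.6% of those of ancestral cells were unshared, against 42.5% and 15.5% over all protein-coding genes, whose log2 ratio was 1.94 (1.90 to 1.98). On stiff gel the shares were 28.5% and 16.0%, against 32.0% and 18.5% and a log2 ratio of 1.01 (0.98 to 1.05). For ZNF genes of other chromosomes the ratios were 2.26 (1.86 to 2.68) and 1.48 (1.08 to 1.90), with intervals that overlapped those of the members.

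Other chromosome 19 genes showed a larger excess than the members and than protein-coding genes in general. Selected-only and ancestral-only body peaks there numbered 2042 and 94 for the soft gel, and 1544 and 197 for the stiff gel, log2 ratios of 4.44 (4.14 to 4.76) and 2.97 (2.76 to 3.19) whose intervals did not overlap those of the members. Left out as undetermined were 57 selected and 324 ancestral peaks on soft gel, and 79 and 218 on stiff gel. For the members these were 0 and 6, and 0 and 7. With such peaks counted as unshared, the members' ratios were 1.36 and 0.65. The other genes had more ancestral peaks left out than counted as ancestral-only, 324 against 94 on soft and 218 against 197 on stiff gel. The same count would thus lower the ratios of these other genes considerably, and whether the intervals would stay apart was not checked. Total body peaks went up 1.57-fold and 1.34-fold in these genes from ancestral to selected cells, against 1.26-fold and 1.06-fold in the members, 1.52-fold and 1.28-fold in ZNF genes of other chromosomes and 1.32-fold and 1.13-fold over all protein-coding genes. Counted by gene, 43 of 250 members had more selected-only than ancestral-only body peaks on soft gel and 16 had fewer (17.2% for more), with a background of 33.9% and 12%. On stiff gel 34 had more and 18 fewer (13.6% and 7.20%), with a background of 25.4% and 17.3%. The members were below the background in both directions on both gels, and this too was not tested. Any body peak was held by 38 to 44% of the members per list, against 59.6 to 63.2% of all protein-coding genes. The count by gene therefore does not separate change between lists from the sparseness of body peaks.

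ZNF324B led the gains. Counting peaks in the gene and at its ends, it had 9 selected-only and no ancestral-only peaks on soft gel and 7 and none on stiff gel. Its body held 5 peaks in each ancestral list and 10 and 9 in the selected lists. It adjoins ZNF584, which had 4 selected-only peaks on stiff gel, and the peak at their shared boundary counts for both. ZNF541 had 6 selected-only peaks on the soft and 3 on the stiff gel, and no body peak in either ancestral list. ZNF653, which codes for a transcriptional repressor, had 5 and 3, with 3, 4, 8 and 6 body peaks in the 4 lists, and ZNF574 had 4 on soft gel. Losses were small: ZNF582, ZNF699 and ZNF708 each had 2 ancestral-only peaks and ZNF20 1 on soft gel, and on stiff gel ZNF20 had 2 and ZNF226, ZNF285 and ZNF345 had 1 each.

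Gel stiffness gave fewer differences at gene ends. Among ancestral cells, 5 members were called at an end on the soft gel alone and 2 on the stiff gel alone (2.01% and 0.80%), with a background of 1.52% and 2.98%. For 4 of the 5, part of a peak lay in the window on stiff gel as well, since the count was 1 when any part of a peak was used. In selected cells the counts were 1 and 2 (0.40% and 0.80%), with a background of 3.13% and 3.34%.

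In the bodies of ancestral cells the stiff gel had more peaks. Without a partner in the other list were 6 on the soft and 36 on the stiff gel, a log2 ratio of -2.58 (-4.12 to -1.32). Other chromosome 19 genes had 162 and 694, a log2 ratio of -2.10 (-2.35 to -1.85), so both sets leaned to stiff gel with overlapping intervals. Over all protein-coding genes the log2 ratio was -1.47 (-1.53 to -1.42) and for ZNF genes of other chromosomes -1.06 (-1.67 to -0.47), also with intervals that overlapped that of the members. Of the members' determined body peaks 3.97% on soft and 19.8% on stiff gel were unshared, and of all protein-coding genes' 7.71% and 19.4%. By gene, 4 members had more soft-only and 28 more stiff-only body peaks (1.60% and 11.2%), with a background of 5.71% and 25.1%. Counting peaks in the gene and at its ends, ZNF787 had 4 stiff-only peaks and none on soft gel, with 7 and 11 body peaks, and ZNF430 and ZNF574 had 2 stiff-only peaks each. In the body alone these were 3, 2 and 1. ZNF444 had 2 soft-only and 4 stiff-only peaks. On the soft side ZNF28, ZNF446 and ZNF579 had 1 body peak each, and ZNF358 had 1 peak at an end.

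In selected cells there was no such lean. Soft-only and stiff-only body peaks numbered 36 each, a log2 ratio of 0 (-0.71 to 0.71), whereas other chromosome 19 genes had 800 and 477, a log2 ratio of 0.75 (0.58 to 0.91). Over all protein-coding genes the log2 ratio was 0.76 (0.72 to 0.80), with 23.5% and 14.9% of body peaks unshared, and for ZNF genes of other chromosomes it was 0.97 (0.58 to 1.36). With a −log10 q of at least 10 the members' ratio was -1.69, and with lists of equal length -2.00. By gene 18 members had more soft-only and 22 more stiff-only body peaks (7.20% and 8.80%), with a background of 22.2% and 13.6%. Counting peaks in the gene and at its ends, ZNF324B and ZNF541 had 3 soft-only peaks each and ZNF446 and ZNF536 had 2. ZNF114 had 3 stiff-only peaks and ZNF556, ZNF665 and ZNF708 had 2, of which 1 at ZNF556 was at an end.

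Of the members with the most body peaks over all lists, only part followed selection. ZNF83 held 5, 7, 8 and 6, ZNF331 6, 6, 6 and 7, ZNF444 5, 5, 6 and 5 and ZNF254 3, 4, 4 and 4. ZNF787 went from 7 and 11 in ancestral to 4 and 5 in selected cells, but 2 of the peaks in selected cells on each gel were selected-only and none of the ancestral ones was ancestral-only. All of its determined ancestral body peaks thus overlapped a peak of the selected list on the same gel. ZNF114 held 5, 7, 3 and 6.

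The members lay in 10 clusters, defined as at least 5 members with gaps of at most 500 kb, which held 236 of the 250. Cluster 4, from ZNF101 to ZNF254, was the sparsest. It spans 4.46 Mb with 37 members, of which 27 had an end peak in each list, and it held 6.93, 9.71, 8.32 and 11.8 body peaks per Mb. The densest was cluster 9, from ZNF628 to ZNF835, with 73.8, 98.4, 69.7 and 82.0 per Mb.

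Cluster 10, at the end of the long arm from ZNF264 to ZNF446 with 43 members, held the most selected-only body peaks. Its body peaks numbered 19 in each ancestral list and 36 and 30 in the selected lists. Selected-only and ancestral-only body peaks there were 22 and 1 on soft gel and 15 and 2 on stiff gel. Cluster 6, from ZNF565 to ZNF573, went the other way with 0 and 3 on soft gel and 0 and 5 on stiff gel, and its body peaks went from 16 and 19 in ancestral to 12 and 14 in selected cells. The direction of the change in body peaks thus differed between these clusters, on few peaks in cluster 6. It was not tested and was not recomputed with stronger peaks alone. ZNF324B, with 9 and 7 selected-only peaks in the gene and at its ends, lies in cluster 10. All peaks in the span of cluster 10 went from 63.9 and 67.8 per Mb in ancestral to 92.4 and 86.3 in selected cells. In the span of cluster 6 they went from 23.8 and 29.4 to 22.5 and 24.4 per Mb.

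**Figure D5:**
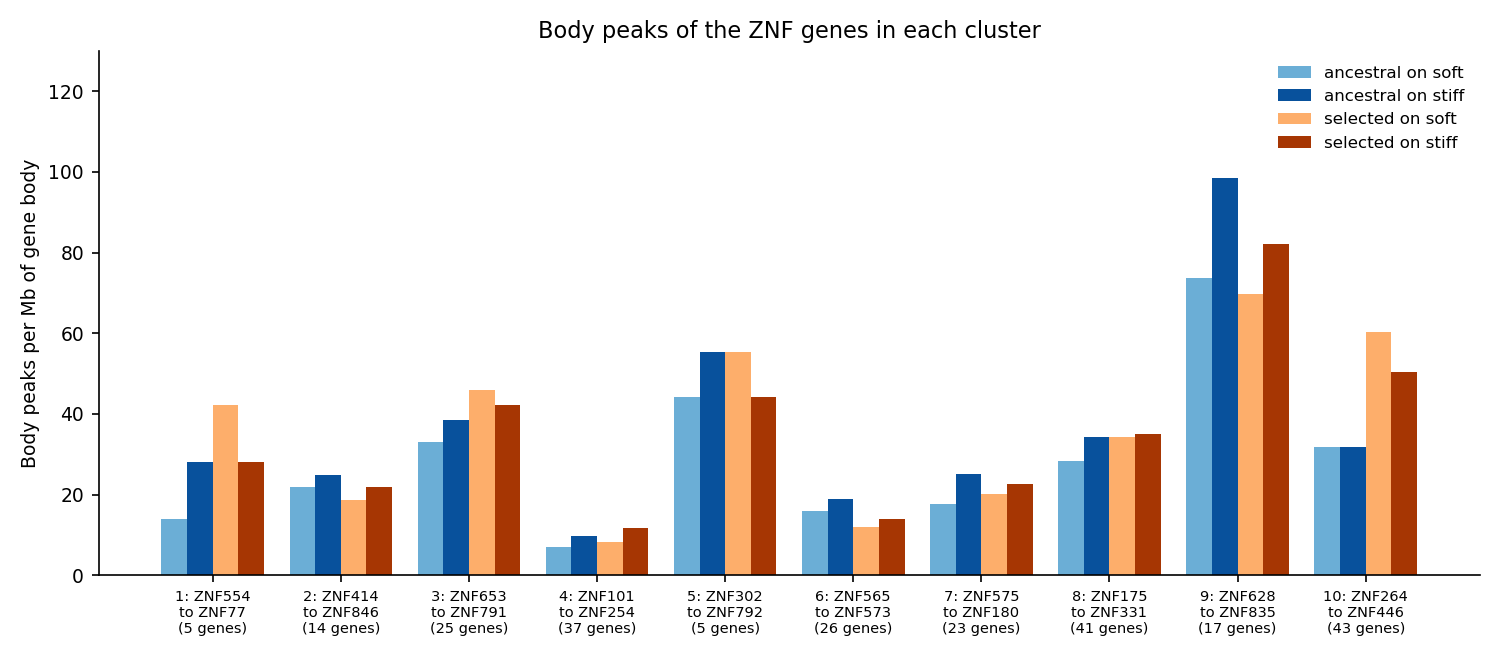
Body peaks per Mb of gene body (y axis) of the zinc finger genes in each of the 10 clusters (x axis, first and last gene and number of genes), 1 bar per peak list, with no error bars. Cluster 10 goes from 31.9 per Mb in both ancestral lists to 60.4 and 50.3 in the selected lists, while cluster 6 is lower in both selected lists than in both ancestral lists.

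The genes between the members shared the sparseness in part. The 86 other protein-coding genes inside the cluster spans had an end peak in 44.2%, 47.1%, 58.3% and 57.1% of cases, against 73.3%, 74.9%, 81.0% and 81.6% of the 1115 genes outside. Their body peaks numbered 54.6, 60.9, 76.4 and 73.0 per Mb, between the members and the genes outside the spans (112.6, 126.2, 178.1 and 170.5 per Mb). All peaks in the spans made up 9.65 to 11.3% of the peaks on chromosome 19.

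Most genes of the KRAB repression pathway had an end peak. Of 28 genes listed it was 25, 25, 26 and 25 in the 4 lists, where 68.4 to 72.5% of all protein-coding genes had one. TRIM28, the corepressor that KRAB domains recruit, had folds of 190.0, 205.0, 127.3 and 163.2, close to the highest among the members. SETDB1, which writes H3K9me3, had 51.4, 54.5, 30.5 and 39.7, and the HP1 genes CBX1, CBX3 and CBX5 had a peak in each list. UHRF1 had no end peak in any list, SUV39H1 had one in ancestral cells on stiff gel only (2.54) and ZFP57 in selected cells on soft gel only (2.42), and EHMT1 was undetermined in ancestral cells on stiff gel.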

How the data were processed

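Chromatin accessibility was measured by ATAC-seq in MDA-MB-231 cells, with nuclei from 200000 cells and 50000 nuclei per library per the labels' protocols. The build GRCh38 and the tools MACS2 2.2.7.1, Bowtie2 2.4.5, Trimmomatic 0.36, MultiQC 1.1 and FastQC 0.11.4 are listed, without role or order, per the submitters' processing notes. How the 4 samples of a group were combined is not given in the sources used here, and depth per sample is unknown. Per the file headers, the deposited lists give the pileup at the summit, a signal not scaled to depth. They also give the fold enrichment, a ratio to the background of the same list made by the authors' peak caller, and the −log10 q of each peak, per the file headers. These values are the authors' own.

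Summits were assigned to the genes of the RefSeq table (GRCh38.p14), with strand and starts from its promoter table. Background pileup was computed from pileup and fold. Each list skips about 1.00% of its peak numbers, and ends or peaks that touch such a stretch were set aside as undetermined. A peak was unshared if it overlapped no peak of the other list by 1 bp. Named genes were those with an end peak in some lists only, the 5 with the highest end peaks, the 8 with the most body peaks, the 5 longest without an end peak, and in each contrast and direction the 4 with the largest difference in unshared peaks. The members and lists were chosen with earlier results of these data known. Calls were tested on simulated peaks planted in the real genes. Alternatives were a window of 3 kb, any part of a peak in place of the summit, a −log10 q of at least 10, lists of equal length, other rules for shared peaks and undetermined ends, the start end alone and, added after the data were seen, any listed start and the set without hyphenated symbols. The planned description of protein features was not run, and 1 marker gene is not reported here. Python 3.11.15, numpy 2.4.6, pandas 2.3.3 and scipy 1.17.1 were used.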

Additional observations from a re-analysis of the deposited data

Results flagged for a closer look

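Some members had an unshared-peak balance of opposite sign under the same contrast, with 1 list per group, so these differences were not tested and most rest on 1 peak. For selected against ancestral cells, the selected-only minus ancestral-only body peaks were 3 on soft and -1 on stiff gel at ZNF83, 1 and -1 at ZNF430, and -1 and 1 at ZNF91. For soft against stiff gel, the soft-only minus stiff-only body peaks were -2 in ancestral and 2 in selected cells at ZNF83, and -1 and 1 at each of ZNF653, ZNF574 and ZNF814.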

How the results depend on the processing

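No paired analysis was possible because the files hold 1 peak list for each group and no value per sample, and for the same reason leaving out a replicate could not be run. Of the results that answer a comparison, 85 of the values under alternatives stayed close to the main value, 47 moved and 2 reversed. The set without hyphenated symbols was run only for end peaks in 1 list only and for single partly open members, and there no value moved. End-peak shares (main 80.3%, 79.2%, 82.0% and 82.7%) were 84.8%, 86.8% and 88.0% in the last 3 lists with a 3 kb window and 88.1%, 87.2%, 91.8% and 91.3% with any listed start. Counts of end peaks in 1 list only are given next for selected only and ancestral only on soft gel (main 9 and 4), the same on stiff gel (10 and 1), soft only and stiff only in ancestral cells (5 and 2) and in selected cells (1 and 2). With a −log10 q of at least 10 the first 3 were 2, 2 and 3, the ancestral soft-only and stiff-only counts were 3 and 1, and the selected stiff-only count was 1. With lists of equal length they were 2, 0, 3 and 0 for selection, 2 for ancestral soft only, and 0 and 1 in selected cells. With any part of a peak the ancestral-only counts were 1 on soft and 2 on stiff gel, and the soft-only counts were 1 in ancestral and 0 in selected cells. With a 3 kb window the ancestral-only counts were 2 and 2, and the counts in ancestral cells 2 and 4. With the start end alone, ancestral only on soft gel was 1 and soft only in ancestral cells 3. With any listed start those were 1 and 3, stiff only in ancestral cells 1, and the selected counts 2 and 1. Counting undetermined ends as no peak made ancestral only on stiff gel 2. The body density relative to other chromosome 19 genes (main 21.0%, 22.6%, 16.8% and 17.8%) was 28.2%, 29.8%, 21.2% and 25.5% with a −log10 q of at least 10 and 34.0%, 36.3%, 25.8% and 30.4% with lists of equal length. The log2 ratio of unshared body peaks reversed from 1.68 to -0.27 on soft gel and from 0.97 to -0.63 on stiff gel with a −log10 q of at least 10. With lists of equal length it was 0.24 on soft and 1.22 on stiff gel, and in selected cells, soft against stiff, -1.69 with that threshold and -2.00 with equal length. With a −log10 q of at least 10 the balance of selected and ancestral lists with an end peak at ZNF444 went from -1 to 1. The cause of these changes was not tested beyond the fold values in the report. Depth per sample is unknown.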
